A study of Mus musculus with 4 samples.

Results

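The 8 genes described here encode the transcription factors that set up and maintain the skeletal muscle programme, and they were chosen by symbol, as 8 of 23282 gene rows in the expression files. Of these, Myf5, Myod1, Myog (myogenin) and Myf6 (also called MRF4) are the myogenic regulatory factors. Pax7 is the paired-box factor of the muscle stem cell, and Mef2a, Mef2c and Mef2d belong to the myocyte enhancer factor 2 (MEF2) family. Each symbol was found on a single row.

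In muscle development and repair these factors act in sequence. Pax7 marks the satellite cell, the stem cell that lies under the basal lamina of the muscle fibre. Myf5 and Myod1 commit such cells to the muscle lineage, Myog drives their differentiation and fusion, and Myf6 is the member of the family that predominates in mature fibres. The myogenic regulatory factors bind the E-box, a short DNA motif, as dimers with widely expressed E proteins, and Id proteins block this by taking up the E proteins. MEF2 proteins bind an AT-rich motif beside the E-box in many muscle promoters, cooperate with the myogenic factors, and are held in check by class IIa histone deacetylases, which calcium-dependent kinases remove from the nucleus. In adult muscle, Myog and the acetylcholine receptor genes are also known to rise when the nerve supply is lost, and MEF2 activity is tied to slow-fibre and metabolic genes.

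The gastrocnemius, a calf muscle made up mainly of fast fibres, was taken from male CDF1 mice, a hybrid of the BALB/c and DBA/2 strains. The design crossed high-intensity treadmill exercise (E) with a tumor (T), for which CT26 cells, a murine colorectal cancer line, were injected through the tail vein, so that the cancer was spread through the body and did not grow from an organ of origin. The 4 groups were normal control (E-T-), with neither; normal exercise (E+T-), with exercise in healthy mice; cancer control (E-T+), with the tumor in sedentary mice; and cancer exercise (E+T+), with both. The labels give postnatal day 28 as the age in all 4 groups, which is the age at which the methods say the mice were bought, and 10 mice per group. The 4 comparisons are called exercise alone (E+T- against E-T-), the tumor alone (E-T+ against E-T-), exercise added to the tumor (E+T+ against E-T+) and the tumor added to exercise (E+T+ against E+T-). Each group had 1 library, and the text of the study describes 1 representative mouse per group for sequencing, so whether a library held RNA of 1 or of several animals was not settled here. No difference below has a replicate check, and no p-value is given.

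Libraries were made by QuantSeq, which reads polyadenylated transcripts from their 3′ end. A transcript then gives about 1 tag whatever its length and counts of different genes can be set beside each other. Reads are whole counts rebuilt from the deposited values, as described in the section on processing. Summed over the gene rows they ranged from 10647525 to 13226073 per library, and 14427 to 14830 genes had reads. All 8 fibre markers listed (among them actin, fast myosin and creatine kinase genes) had reads in all libraries, with summed levels of 700609 to 1159090 reads. Levels are given as reads and as the deposited normalized read count, which is a count adjusted to a common library size. A run of 4 values given without names follows the order E-T-, E+T-, E-T+, E+T+. A gene was called changed when its normalized read count differed at least 2-fold, with at least 4 normalized reads in at least 1 of the 2 libraries. Fold changes are differences of log2(normalized read count + 1). Bracketed intervals are 95% Clopper-Pearson intervals for the ratio of the reads and cover counting error only. As the tissue was sequenced whole, fewer cells of a type and less RNA per cell cannot be told apart.

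Myf5 (chr10:107482908-107486134) and Myf6 (chr10:107492853-107494737) lie on the minus strand as neighbours, 6718 bases apart, in the GRCm38 (mm10) annotation GENCODE M21. Myod1 lies at chr7:46376474-46379099 and Myog at chr1:134289989-134292548, both on the plus strand, and Pax7 at chr4:139737062-139833528 on the minus strand. No exon of another gene overlaps the exons of these 5 genes or of Mef2c, at chr13:83504034-83667080 on the plus strand. Mef2a, at chr7:67231163-67372858 on the minus strand, shares 302 exon bases with Lysmd4 on the opposite strand, 3764 bases from the 3′ end of Mef2a. Mef2d, at chr3:88142372-88172086 on the plus strand, shares its last 531 exon bases with the antisense gene 1700113A16Rik, and these bases lie at the 3′ end of both genes, where tags are read. How the authors' counting treated strand is not given in the sources used here, so reads of Mef2d and of this antisense gene cannot be told apart.

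Promoter sequence was found for 6 of the 8 members in the RefSeq table for GRCm38.p6, without Myf6 and Myod1. The 250 bases before each start site were searched on both strands for the E-box, CANNTG, and for the MEF2 consensus. The 250 bases of the Myog promoter (chr1:134289754-134290003, plus strand) are shown because this short stretch is the textbook meeting point of both factor families. Its capitals mark 2 E-boxes, CACATG at 138 to 133 and CAGTTG at 12 to 7 bases before the start, and between them CTATATTTAT, at 64 to 55 bases before the start, which departs from the MEF2 consensus at 1 letter. The first Mef2c start site in the table (chr13:83503784-83504033, plus strand) is shown because Mef2c was the most abundant member, and its capitals mark 2 E-boxes, CAAGTG and CATATG, and between them GTAATTTTAA, at 146 to 137 bases before the start, which also departs from the MEF2 consensus at 1 letter. The Myf5 promoter (chr10:107486135-107486384, minus strand) held neither motif, also with 1 mismatch allowed for MEF2, and is shown for contrast.
Myog: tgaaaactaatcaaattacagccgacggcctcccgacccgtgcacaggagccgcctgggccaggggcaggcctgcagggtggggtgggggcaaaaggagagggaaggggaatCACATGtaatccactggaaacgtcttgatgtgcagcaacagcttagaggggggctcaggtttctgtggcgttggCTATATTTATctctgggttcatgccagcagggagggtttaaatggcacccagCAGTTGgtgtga
Mef2c: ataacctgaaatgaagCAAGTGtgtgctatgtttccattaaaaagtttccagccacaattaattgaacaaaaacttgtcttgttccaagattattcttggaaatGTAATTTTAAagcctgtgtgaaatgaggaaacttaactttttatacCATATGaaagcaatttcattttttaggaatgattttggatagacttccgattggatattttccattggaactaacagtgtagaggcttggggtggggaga
Myf5: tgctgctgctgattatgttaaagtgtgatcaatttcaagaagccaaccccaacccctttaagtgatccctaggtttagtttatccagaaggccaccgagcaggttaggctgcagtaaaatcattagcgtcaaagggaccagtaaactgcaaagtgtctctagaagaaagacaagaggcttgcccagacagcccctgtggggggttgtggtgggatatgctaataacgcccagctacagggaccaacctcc

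An E-box was found in 66.2% of the 32851 promoters in the table, and 31.8% held at least as many as Myog. The strict MEF2 consensus was found in 2.92% of them and in none of the members' promoters. With at most 1 mismatch, a setting chosen after the Myog letters were seen, 25% of promoters held a match. Pax7, Mef2a and Mef2d had no E-box in these windows. These letters are a description of the sequence and not of binding.

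Most of the factors differed in the comparison of the tumor alone, that is cancer control against normal control. Of the 8 members, 7 were called, against a background of 45.1% of the 14818 genes tested. Myf5, Myod1, Myf6, Pax7 and Mef2c were lower with the tumor, and Myog and Mef2d were higher. The share of all genes called lower was 24.2% and higher 20.9%. The median over the members was a log2 fold change of -1.77, beside -0.04 over all genes tested. Exercise added to the tumor, cancer exercise against cancer control, gave 5 calls among the 7 members that met the minimum, against 30.6% of all genes tested. Here Myf5, Myod1, Myf6 and Mef2c were higher and Mef2d was lower with exercise, where 15.6% and 15.1% of all genes were called higher and lower.

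Exercise alone, normal exercise against normal control, gave 2 calls of 8, with Myog higher and Myf5 lower. That is against a background of 21.5% of the 14518 genes tested (9.44% higher, 12.1% lower), and the median of the members was -0.26, beside -0.01 over all genes. The tumor added to exercise, cancer exercise against normal exercise, gave 4 calls of 8, against 30.3% of all genes (13.9% higher, 16.3% lower). Myf5 and Mef2d were higher, Pax7 and Mef2c lower. The comparisons share libraries pairwise. In particular, a low value in cancer control enters both the tumor alone and exercise added to the tumor, so a fall in one and a rise in the other can come from the same library.

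Markers of other cell types also differed between these libraries. The 4 tendon markers summed to 9460, 4648, 1513 and 4080 normalized reads, a log2 ratio of -2.64 with the tumor alone (4 of 4 called lower) and 1.43 with exercise added to the tumor, so that cancer control was lowest for them as for Myf5, Myod1, Myf6 and Mef2c. The 3 neutrophil markers found summed to 67, 149, 2597 and 1843 normalized reads, a log2 ratio of 5.28 with the tumor alone. The 6 macrophage markers summed to 3211, 3164, 5485 and 4719. The single macrophage markers were split with the tumor alone, with 3 above and 3 below 0 (2 called higher, 0 lower, median 0.20). The 3 red cell markers summed to 227812, 48316, 217129 and 458550, with log2 ratios of -2.24 with exercise alone and 3.25 with the tumor added to exercise. The part of these cell types in the members' values was not tested.

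**Figure D1:**
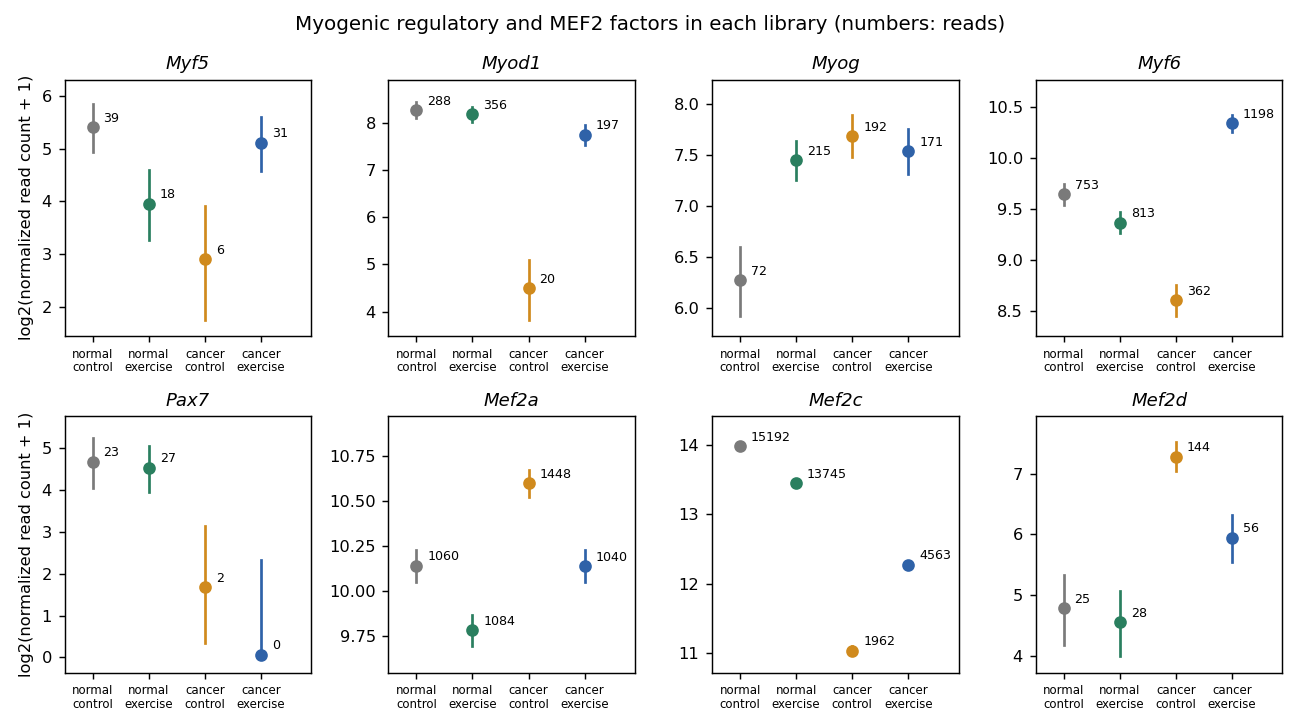
Deposited level of each factor, log2(normalized read count + 1), in the 4 libraries. Points are the single library of each group, the number beside a point is its reads, and bars are exact 95% Poisson counting intervals. Vertical scales differ between panels and do not start at 0. Cancer control is the lowest library for Myf5, Myod1, Myf6 and Mef2c, and the highest for Myog, Mef2a and Mef2d.

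Myod1, the factor that can by itself turn other cells into muscle, had the largest change with the tumor alone among the members whose reads were above 3 in all libraries. It had 288 reads in E-T-, 356 in E+T-, 20 in E-T+ and 197 in E+T+, or 306, 289, 21.5 and 213 normalized reads. Cancer control was thus apart from the other 3 libraries. The log2 fold change was -3.77 [-4.57, -3.18] with the tumor alone, a change as large as that of 5.04% of genes tested, and 3.25 [2.65, 4.06] with exercise added to the tumor, as large as that of 4.61%. Neither exercise alone, at -0.08 [-0.31, 0.14], nor the tumor added to exercise, at -0.43 [-0.69, -0.18], passed the 2-fold limit. In the order of levels, normal control and normal exercise did not differ beyond counting error (ratio 1.06, 0.905 to 1.24), while normal exercise exceeded cancer exercise 1.35-fold (1.13 to 1.62).

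Myf5, the earliest of the family to be expressed in the embryo, was the scarcest of the 4 myogenic regulatory factors in each library. Its reads numbered 39 in E-T-, 18 in E+T-, 6 in E-T+ and 31 in E+T+, or 41.4, 14.5, 6.48 and 33.5 normalized reads. It was the only member called in all 4 comparisons. Its log2 fold change was -1.45 [-2.40, -0.67] with exercise alone and -2.50 [-4.22, -1.44] with the tumor alone. With exercise added to the tumor it was 2.21 [1.10, 3.94], and with the tumor added to exercise 1.16 [0.32, 2.13]. Normal control and cancer exercise, the top of the order, did not differ beyond counting error (ratio 1.24, 0.751 to 2.05), nor did normal exercise and cancer control at the bottom (ratio 2.27, 0.864 to 6.99).

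Pax7 was close to the limit of detection in both tumor-bearing groups. There were 23 reads in E-T-, 27 in E+T-, 2 in E-T+ and 0 in E+T+. The 2 healthy libraries did not differ beyond counting error (ratio 1.12, 0.612 to 2.02). With the tumor alone the ratio of scaled reads was 0.0876 (0.01 to 0.354). With the tumor added to exercise Pax7 was 6.74-fold lower when its 0 reads were set to a floor of 3 reads. The counting interval of that ratio reached up to 0.196, which is a weaker bound. No fold is given between the 2 tumor-bearing libraries, since both were under this floor, and the counting interval of their ratio had no upper bound.

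Of the other satellite cell markers, Myf5, Megf10 and Calcr also had fewer reads with the tumor alone, and Cdh15 and Chrdl2 had more. Of the 5 of 6 listed markers that met the minimum there, 0 were called higher and 2 lower, with a median log2 fold change of -0.80. The summed level of the 6 markers listed (Pax7, Myf5, Cdh15, Chrdl2, Megf10 and Calcr) was 225 normalized reads in E-T-, 225 in E+T-, 300 in E-T+ and 284 in E+T+. All 6 had reads in the healthy libraries, 5 in cancer control, where Calcr was at 0, and 3 in cancer exercise, where Pax7, Megf10 and Calcr were at 0. Cdh15, the M-cadherin that joins satellite cells to fibres, made up most of this sum and set its course, with 110, 202, 214 and 213 reads in the order of E-T-, E+T-, E-T+ and E+T+, and was called in no comparison. Megf10 had 6, 4, 3 and 0 reads and Calcr, the calcitonin receptor of quiescent satellite cells, 2, 6, 0 and 0. Pax3, the paralog of Pax7, had 0 reads in all 4 libraries. The part of satellite cell number in the Pax7, Myf5 and Myod1 values was not tested.

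A broader list of 21 genes of satellite cells and their niche, without the 8 members, had 1 of 19 genes higher and 3 lower with the tumor alone (21.1% called, median 0.03), and 1 of 19 higher and 5 lower with the tumor added to exercise (31.6%, median -0.40). With exercise 1 of 20 was higher and 2 lower in healthy mice (15%, median 0.10), and 1 of 18 higher and 2 lower in tumor-bearing mice (16.7%, median -0.08). The shares of all genes called were 45.1%, 30.3%, 21.5% and 30.6% in these comparisons, in the order given. Cxcr4, a chemokine receptor, had 164, 94, 23 and 53 reads, with log2 fold changes of -1.18 with exercise alone, -2.77 with the tumor alone and 1.19 with exercise added to the tumor. Notch3, a receptor that helps to keep satellite cells quiescent and is also found in smooth muscle, had 185, 202, 47 and 77 reads and fell with the tumor alone (-1.94). The summed level of 3 smooth muscle markers was 1295, 1524, 668 and 1155 normalized reads, so it was also lowest in cancer control. Hes1, a target of Notch signalling, had 502, 1068, 389 and 198 reads and fell with the tumor added to exercise (-2.01). Fgfr4, a growth factor receptor of myoblasts, had 9, 46, 10 and 7 reads, rose with exercise alone (1.86) and fell with the tumor added to exercise (-2.16). Sdc4, a syndecan of satellite cells that other cell types share, had 148, 232, 679 and 363 reads and rose with the tumor in sedentary (2.20) and exercised mice (1.06). Vcam1 fell with exercise added to the tumor (-1.14), and Chrdl2, at 32, 20, 55 and 18 reads, with exercise in both healthy (-1.04) and tumor-bearing mice (-1.54).

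Myog was lowest in normal control and near one level in the other 3 libraries. It had 72 reads in E-T-, 215 in E+T-, 192 in E-T+ and 171 in E+T+, or 76.6, 174, 206 and 185 normalized reads. The log2 fold change was 1.18 [0.80, 1.59] with exercise alone and 1.41 [1.03, 1.84] with the tumor alone. Adding exercise to the tumor gave -0.15 [-0.46, 0.15], and adding the tumor to exercise 0.09 [-0.21, 0.38]. In the order of levels, cancer control and cancer exercise (ratio 1.11, 0.899 to 1.37) and cancer exercise and normal exercise (ratio 1.06, 0.864 to 1.3) did not differ beyond counting error. A change as large as that with exercise alone, in either direction, was seen in 17.9% of genes tested.

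Myf6 was the most abundant myogenic regulatory factor in all 4 libraries. It had 753 reads in E-T-, 813 in E+T-, 362 in E-T+ and 1198 in E+T+, or 801, 659, 388 and 1298 normalized reads. Cancer control was the lowest and cancer exercise the highest library. With exercise added to the tumor the log2 fold change was 1.74 [1.57, 1.92], and with the tumor alone -1.04 [-1.23, -0.86], a call that was lost when libraries were scaled by their total reads. The tumor added to exercise, at 0.98 [0.85, 1.11], and exercise alone, at -0.28 [-0.43, -0.14], stayed under the 2-fold limit. All neighbours in the order of levels differed beyond counting error.

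**Figure D2:**
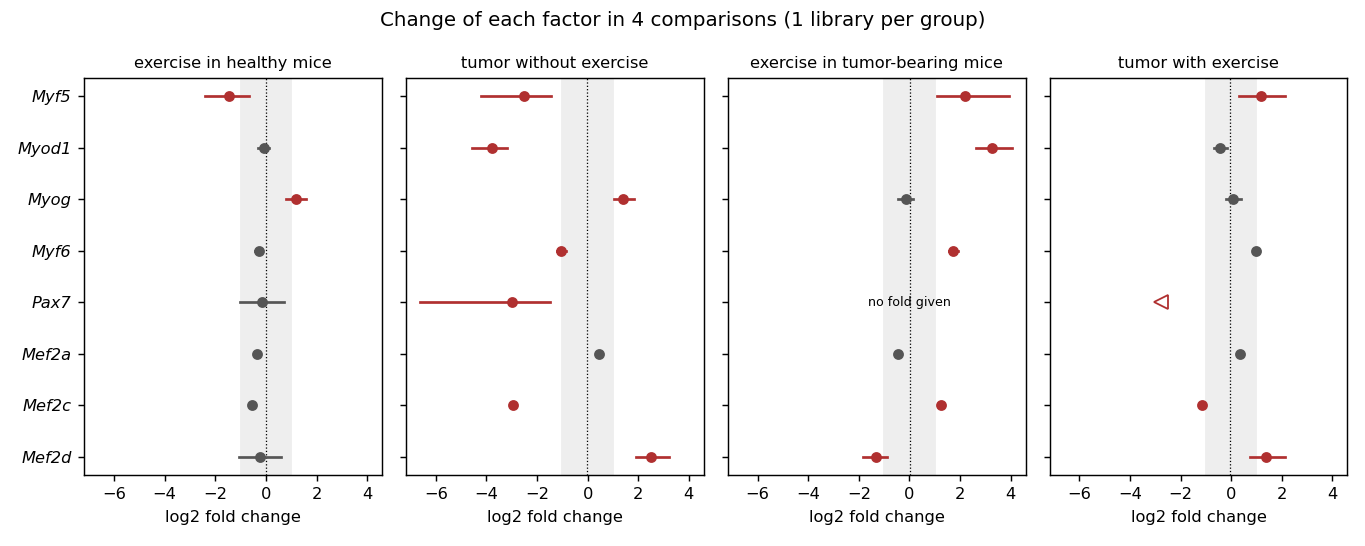
Log2 fold change of each factor (horizontal axis) for, from left to right, exercise alone, the tumor alone, exercise added to the tumor and the tumor added to exercise, with 95% counting intervals as lines. Red points passed the 2-fold limit, whose range is shaded, and the dotted line is the median of all genes tested. The open triangle is the lower bound of the fall of Pax7 to 0 reads, at least 6.74-fold, and no fold is given for Pax7 between the tumor-bearing libraries. The largest fall drawn as a point is that of Myod1 with the tumor alone, at -3.77.

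Mef2c, the family member known for its control of sarcomere genes in fibres, was the most abundant of the 8 factors in all libraries. It had about 15192 reads in E-T-, 13745 in E+T-, 1962 in E-T+ and 4563 in E+T+, and each of these counts is known within 6 reads. The normalized counts were 16157, 11143, 2102 and 4941, so both tumor-bearing libraries lay below both healthy ones. The log2 fold change was -2.94 [-3.01, -2.88] with the tumor alone and -1.17 [-1.22, -1.12] with the tumor added to exercise. It rose (1.23 [1.16, 1.31]) with exercise added to the tumor and gave -0.54 [-0.57, -0.50] with exercise alone, under the 2-fold limit. All neighbours in the order of levels differed beyond counting error.

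Mef2c is also expressed by endothelial cells and B cells. The summed level of the 6 endothelial markers was 2596 normalized reads in E-T-, 3334 in E+T-, 2669 in E-T+ and 2918 in E+T+, a log2 ratio of 0.04 with the tumor alone. The single markers were mixed there, with 2 above and 4 below 0 (1 called higher, 0 lower, median -0.28). Pecam1 alone held 1437 of their 2492 reads in E-T+. The 4 B cell markers had 12, 37, 0 and 4 reads in all, and their part in the Mef2c values was not tested. The summed level of the 8 fibre markers gave log2 ratios of -0.67 for the tumor alone and -0.25 for the tumor added to exercise. The medians over the single markers were 0.02 and 0.13.

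Mef2a varied least of the 8 factors. It had 1060 reads in E-T-, 1084 in E+T-, 1448 in E-T+ and 1040 in E+T+, or 1127, 879, 1551 and 1127 normalized reads. The log2 fold changes were -0.36 with exercise alone, 0.46 with the tumor alone, -0.46 with exercise added to the tumor and 0.36 with the tumor added to exercise, so it was called in no comparison. Normal control and cancer exercise did not differ beyond counting error (ratio 1, 0.918 to 1.09). Lysmd4, which shares exon bases with it, had 189, 253, 211 and 240 reads.

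Mef2d was scarce in the healthy libraries and higher in both tumor-bearing ones. It had 25 reads in E-T-, 28 in E+T-, 144 in E-T+ and 56 in E+T+, or 26.6, 22.5, 154 and 60.6 normalized reads. The log2 fold change was 2.49 [1.92, 3.21] with the tumor alone, 1.39 [0.74, 2.13] with the tumor added to exercise and -1.33 [-1.82, -0.89] with exercise added to the tumor. Exercise alone gave -0.23 [-1.06, 0.61]. The antisense gene 1700113A16Rik at its 3′ end was far more abundant, at 957, 1706, 1998 and 1296 reads, and its log2 fold changes were 0.44, 1.07, -0.61 and 0.02 in the order of exercise alone, the tumor alone, exercise added to the tumor and the tumor added to exercise. The part of these shared bases in the Mef2d values was not tested.

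Mef2b, a family member outside the 8 that is best known from B cells, had 7, 25, 51 and 14 reads. Its log2 fold changes were 1.32 with exercise alone, 2.71 with the tumor alone and -1.78 with exercise added to the tumor. Its exons overlap those of Borcs8 on the same strand, which had 161, 304, 231 and 262 reads, so its counts are uncertain.

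The make-up of both families differed between libraries. Myf6 took 65.4% of the reads of the 4 myogenic regulatory factors in normal control (95% Clopper-Pearson interval 62.5 to 68.1), 58% in E+T-, 62.4% in E-T+ and 75% in E+T+ (72.8 to 77.1). Myod1 took 25% (22.5 to 27.6) in normal control and 25.4% in normal exercise, but 3.45% (2.12 to 5.28) in cancer control and 12.3% (10.8 to 14) in cancer exercise. Myog went the other way, from 6.25% (4.92 to 7.81) in normal control to 15.3% in normal exercise and 33.1% (29.3 to 37.1) in cancer control, with 10.7% in cancer exercise. Thus Myod1 exceeded Myog in reads in normal control, normal exercise and cancer exercise, and the order was turned around in cancer control, with 20 reads of Myod1 against 192 of Myog. The summed reads of the 4 genes were 1152, 1402, 580 and 1597, a log2 ratio of -0.98 [-1.13, -0.83] with the tumor alone and 1.48 [1.34, 1.62] with exercise added to the tumor.

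Among the MEF2 factors, Mef2c took 93.3% of the reads of Mef2a, Mef2c and Mef2d in normal control (92.9 to 93.7) and 92.5% in normal exercise. In cancer control its share was 55.2% (53.6 to 56.8) and in cancer exercise 80.6% (79.6 to 81.7). Mef2a took 6.51%, 7.3%, 40.7% and 18.4% in the order of E-T-, E+T-, E-T+ and E+T+, while its own level differed by less than 2-fold in each comparison. Mef2d, by the reads counted under its symbol, never took more than 4.05%. The antisense gene 1700113A16Rik, which shares its 3′ bases, had 957, 1706, 1998 and 1296 reads. As reads of these genes cannot be told apart, the MEF2 shares and the sum that follows are uncertain. The summed reads of the 3 genes gave a log2 ratio of -2.19 for the tumor alone.

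**Figure D3:**
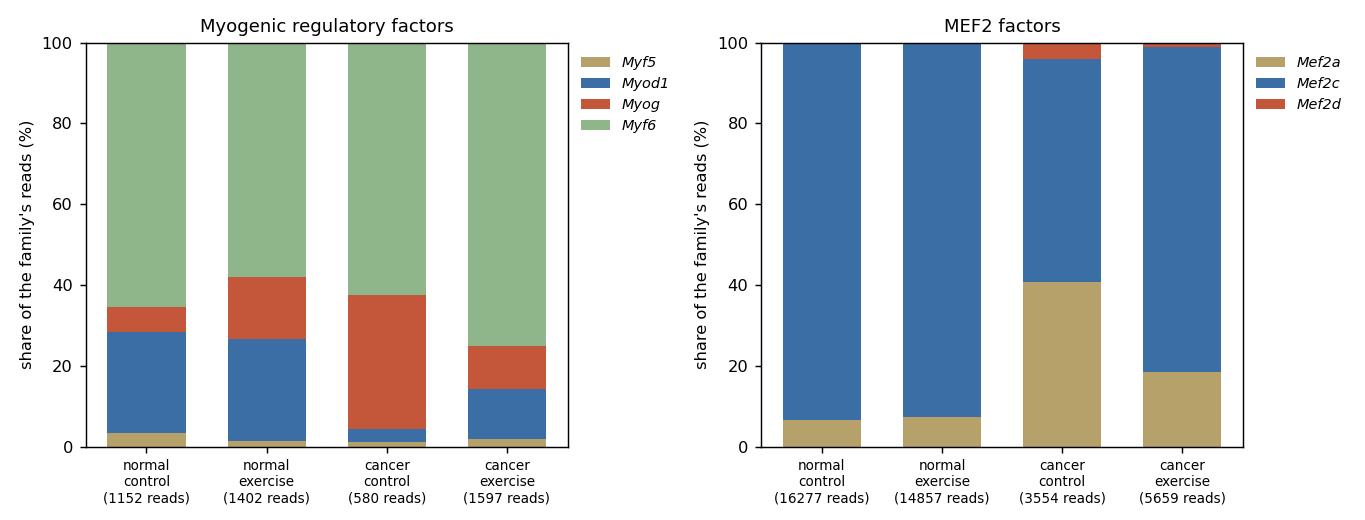
Share of reads (vertical axis, percent) taken by each myogenic regulatory factor (left) and each MEF2 factor (right) in the 4 libraries, with the family's reads in brackets. The Myog share reaches 33.1% and the Myod1 share falls to 3.45% in cancer control, and the Mef2a share reaches 40.7% there.

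The effect of exercise was set side by side in healthy and tumor-bearing mice, as the difference of the log2 fold changes. For Myf5 the difference was 3.66 (counting interval 2.40 to 5.39), for Myod1 3.34 (2.70 to 4.10), for Myf6 2.02 (1.80 to 2.25) and for Mef2c 1.77 (1.69 to 1.85), all higher with the tumor. For Myog it was -1.33 (-1.82 to -0.85) and for Mef2d -1.10 (-2.01 to -0.22). For Mef2a, at -0.10 (-0.27 to 0.07), the counting interval included 0, and for Pax7 no difference is given, since both tumor-bearing libraries were under the floor. The same numbers are the difference of the tumor effect between exercised and sedentary mice, and with 1 library in each of the 4 groups they could not be set against a spread between animals.

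The E proteins, with which the myogenic factors dimerize, gave 0 or 1 call of 3 in each comparison, where 21.5% to 45.1% of all genes were called. Tcf4 had 2493, 3614, 1993 and 1916 reads and Tcf12 458, 618, 378 and 328 reads in the order of E-T-, E+T-, E-T+ and E+T+, and neither was called in any comparison. Tcf3, which encodes E12 and E47, had 102, 195, 185 and 66 reads. It was 1 of 3 E protein genes called lower with exercise added to the tumor (-1.46) and with the tumor added to exercise (-1.13).

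The Id genes and other repressors of the myogenic factors made up a list of 14. With the tumor alone 5 of 14 were called lower and 0 higher (35.7% called against 45.1% of all genes, median -0.64). With exercise added to the tumor 4 of 13 were called higher and 2 lower (46.2% against 30.6%, median 0.50). With exercise alone 1 of 14 was higher and 1 lower (14.3% against 21.5%, median -0.21). With the tumor added to exercise 3 of 13 were higher and 3 lower (46.2% against 30.3%, median -0.08). Id1 had 501, 369, 208 and 578 reads, with log2 fold changes of -1.25 with the tumor alone, 1.49 with exercise added to the tumor and 1.06 with the tumor added to exercise. Id2, at 181, 143, 127 and 103 reads, and Id3, at 817, 1009, 652 and 912 reads, were called in no comparison. Msc, the repressor musculin, had 67, 143, 16 and 52 reads and, like Myod1, was lowest in cancer control (-1.99 with the tumor alone, 1.66 with exercise added to the tumor). Twist2, at 35, 26, 14 and 56 reads, was also lowest there (1.94 with exercise added to the tumor). Bhlhe41, a repressor also known from the circadian clock, had 421, 1138, 154 and 277 reads, rose with exercise alone (1.04) and fell with the tumor in sedentary (-1.44) and exercised mice (-1.62).

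Snai1 and Snai2, zinc-finger repressors that compete for E-boxes and are also markers of mesenchymal cells, moved in unlike ways. Snai1 had 80, 12, 35 and 92 reads, fell with exercise alone (-3.03) and rose with the tumor added to exercise (3.25). Snai2 had 70, 65, 42 and 9 reads and fell with exercise added to the tumor (-2.09). The 5 fibroblast markers summed to 63772, 40087, 36113 and 36103 normalized reads, most of it from Dcn. With the tumor alone 0 of the 5 were called higher and 3 lower (median -2.56). With exercise added to the tumor 2 were higher and 0 lower (median 0.02). The part of fibroblasts in the Snai1 and Snai2 values was not tested.

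The list of MEF2 co-factors and regulators had 25 genes, and its medians stayed near those of all genes in 3 comparisons: 0.11 for exercise alone, -0.04 for the tumor alone and 0.02 for exercise added to the tumor. With the tumor added to exercise 2 of 25 were called higher and 8 lower (40% called against 30.3% of all genes, median -0.39). Exercise alone gave 1 higher and 1 lower (8% against 21.5%), and exercise added to the tumor 3 higher and 4 lower (28% against 30.6%). With the tumor alone 3 were higher and 4 lower (28% against 45.1%). Each of those 4 was lowest in cancer control, a library that the call itself requires to be low. Smarcd3, a subunit of the chromatin remodelling complex that works with the myogenic factors and MEF2, had 1205, 1541, 155 and 353 reads, with log2 fold changes of -2.94 with the tumor alone and 1.20 with exercise added to the tumor. Camk2a, a calcium-dependent kinase, had 2558, 4418, 343 and 898 reads, with -2.88 and 1.40 in the same comparisons. Mapk14, the p38 kinase that phosphorylates MEF2, had 942, 1587, 350 and 739 reads, with -1.42 and 1.09. Map2k6, the kinase upstream of p38, had 209, 237, 119 and 39 reads and fell with the tumor added to exercise (-2.16). Mamstr, a co-activator of MEF2 and Myod1, had 95, 92, 39 and 45 reads and fell with the tumor alone (-1.25). Its tumor-bearing libraries did not differ beyond counting error (0.22 [-0.43, 0.88]).

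Sik1 and Vgll2 went up with the tumor. Sik1, a kinase that phosphorylates class IIa histone deacetylases and is itself induced by cyclic AMP, had 45, 52, 596 and 112 reads, with log2 fold changes of 3.71 with the tumor alone and -2.39 with exercise added to the tumor. Vgll2, a muscle co-factor of TEAD and MEF2, had 1652, 1772, 5127 and 5148 reads, with 1.64 with the tumor alone, 1.96 with the tumor added to exercise and 0.02 with exercise added to the tumor. Of the class IIa deacetylases, Hdac5 had 470, 428, 407 and 386 reads and was called in no comparison, and Hdac7 varied from 1108 to 1913 reads without a call. Hdac4 (65, 132, 75 and 47 reads) and Hdac9 (23, 58, 12 and 16 reads) fell with the tumor added to exercise, with log2 fold changes of -1.06 and -1.39. Ncoa2, a steroid receptor co-activator, was the single gene of the list lower with exercise alone (-1.04).

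Genes downstream of the myogenic factors formed a list of 26. With the tumor alone 8 of 24 were higher and 6 lower (58.3% called against 45.1% of all genes, median 0.12). With exercise added to the tumor 7 of 26 were higher and 3 lower (38.5% against 30.6%, median 0.53). With the tumor added to exercise 10 of 25 were higher and 1 lower (44% against 30.3%, median 0.51). With exercise alone 3 of 22 were higher and 2 lower (22.7% against 21.5%, median 0.07). These counts include genes with 0 reads in 1 library, whose folds at the floor of 3 reads can lie under 2-fold. The medians did not change when these genes were set to their folds at the floor. Cdkn1a, the cell-cycle inhibitor p21, had 380, 336, 8029 and 3386 reads, with 4.41 with the tumor alone and -1.23 with exercise added to the tumor. Gadd45a, a growth-arrest gene known to be induced in denervated muscle, had 165, 116, 208 and 355 reads and rose with the tumor added to exercise (2.02). Runx1, known from denervated fibres, had 45, 36, 164 and 66 reads, with 1.85 with the tumor alone and -1.28 with exercise added to the tumor. Sln, sarcolipin, an inhibitor of the calcium pump, had 43, 171, 177 and 951 reads and was called higher in all 4 comparisons (1.58, 2.03, 2.44 and 2.89).

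Genes of the neuromuscular junction, many of them targets of Myog, did not share one pattern. Musk, the receptor kinase that builds the junction, had 10 reads in E-T- and 80, 74 and 50 in E+T-, E-T+ and E+T+, with log2 fold changes of 2.49 with exercise alone and 2.78 with the tumor alone. Like Myog, it was lowest in normal control, and so were Rapsn, Chrna1 and Chrnb1, the receptor beta subunit. For Chrnb1, normal control and cancer control did not differ beyond counting error (0.13 [-0.23, 0.49]). Rapsn, which clusters the receptor, had 256, 725, 370 and 647 reads and rose with exercise alone (1.11). Chrna1, the receptor alpha subunit, had 98, 205, 181 and 323 reads and passed the limit with the tumor added to exercise (1.07). Chrne, the adult epsilon subunit, had 59, 95, 11 and 22 reads and fell with the tumor in sedentary (-2.31) and exercised mice (-1.65). Chrng, the foetal gamma subunit, had 7 reads in E-T+ and none elsewhere. At the floor of 3 reads it was 2.35-fold higher with the tumor alone, with a counting interval from 1.45-fold up. Dok7, an activator of Musk, had 9, 18, 0 and 17 reads. With exercise added to the tumor it was 5.73-fold higher at the floor, with a counting interval from 4.17-fold up.

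Fusion and developmental genes were near the floor or moved apart. Mymk, the fusion factor myomaker, had 0 reads in 3 libraries and 11 in cancer exercise. At the floor of 3 reads this was 3.71-fold higher than in cancer control, with a counting interval from 2.54-fold up. Mymx, myomixer, had 5, 1, 0 and 7 reads and was 2.36-fold higher at the floor in the same comparison, with a counting interval from 1.46-fold up. Myh3, embryonic myosin, had 36, 37, 85 and 50 reads and rose with the tumor alone (1.23), while Myh8, perinatal myosin, at 972, 691, 802 and 821 reads, was called in no comparison. Actc1, cardiac actin, had 953, 152, 42 and 73 reads, so that normal control stood above the other libraries, with -3.03 with exercise alone and -4.46 with the tumor alone. Jam3, an adhesion molecule, and Cav3, the muscle caveolin, were lowest in cancer control, at 164, 222, 49 and 120 reads and 776, 890, 307 and 619 reads.

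Of 18 MEF2 target genes listed, 17 were found in the files. With the tumor alone 4 of 17 were called higher and 4 lower (47.1% called against 45.1% of all genes, median -0.68). With exercise added to the tumor 4 were higher and 0 lower (23.5% against 30.6%, median 0.44). With exercise alone 2 were higher and 3 lower (29.4% against 21.5%, median -0.27). With the tumor added to exercise 4 were higher and 1 lower (29.4% against 30.3%, median 0.43). Pgam2, muscle phosphoglycerate mutase, had 22273, 18842, 2932 and 9795 reads and, like Mef2c, was highest in E-T- and next in E+T-, E+T+ and E-T+, with -2.91 with the tumor alone and 1.76 with exercise added to the tumor. Mb, myoglobin, had 26970, 16946, 6691 and 10461 reads, with -1.06 with exercise alone and -2.0 with the tumor alone. Rian, a non-coding RNA of the imprinted Dlk1-Dio3 region, had 71, 35, 11 and 39 reads, with -1.38, -2.57 and 1.75 for exercise alone, the tumor alone and exercise added to the tumor.

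Some MEF2 targets rose with the tumor alone, where Mef2c fell. Xirp1, an actin-binding protein of the sarcomere, had 232, 306, 2858 and 1593 reads, with 3.63 with the tumor alone and 2.79 with the tumor added to exercise. The slow-fibre genes Tnni1, slow troponin I, at 251, 958, 1419 and 715 reads, and Myh7, slow myosin, at 356, 1069, 1532 and 786 reads, rose with exercise alone (1.54 and 1.19) and with the tumor alone (2.50 and 2.11). Jun had 1164, 894, 617 and 2060 reads and, like Mef2c, rose with exercise added to the tumor (1.75), with -0.91 for the tumor alone. Unlike Mef2c, which fell with the tumor added to exercise (-1.17), Jun rose there (1.62). Dio3, a deiodinase, had 15, 9, 31 and 23 reads and rose with the tumor in sedentary (1.01) and exercised mice (1.67). Slc2a4, the insulin-dependent glucose transporter, and Ppargc1a, the co-activator of mitochondrial genes, were called in no comparison, with log2 fold changes of 0.43 and -0.68 with the tumor alone.

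**Figure D4:**
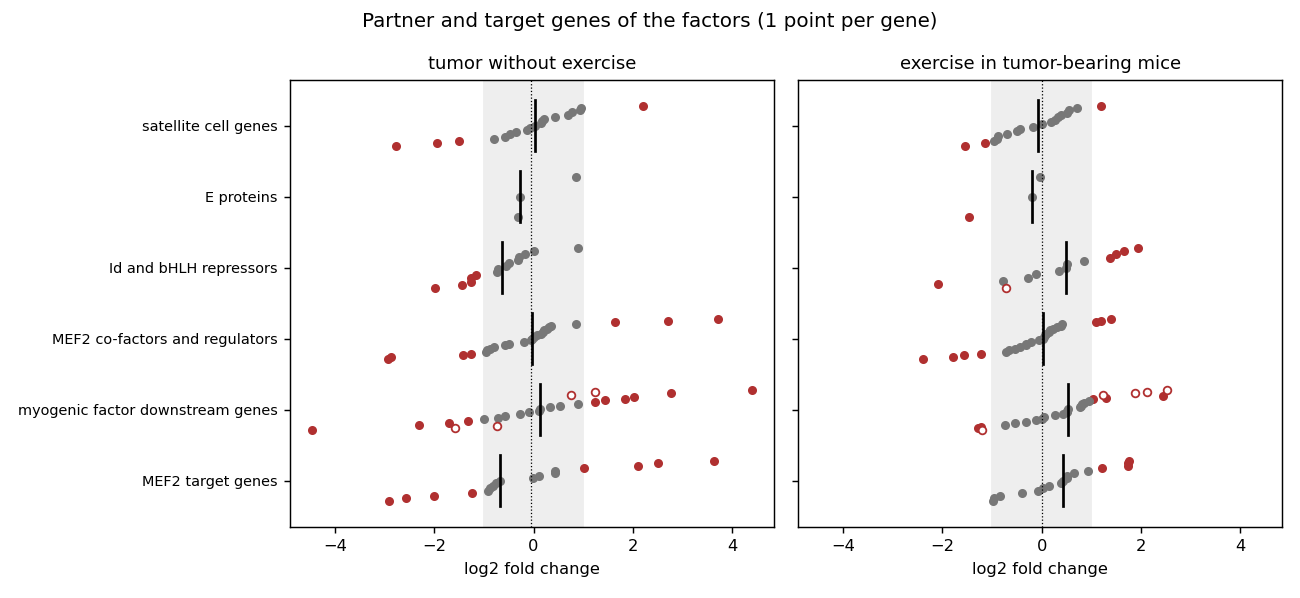
Log2 fold change (horizontal axis) of each gene of the 6 lists that met the minimum, 1 point per gene, for the tumor alone (left) and exercise added to the tumor (right). Red points passed the 2-fold limit (shaded range), open points are lower bounds for genes with 0 reads in 1 library, black bars are list medians and dotted lines the medians of all genes tested. The downstream genes run from -4.46 (Actc1) to 4.41 (Cdkn1a) on the left.

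The genes with profiles most like each factor were found by the distance between log2 levels centred over the 4 libraries, among 12055 genes with a mean of at least 16 normalized reads. With 4 points such likeness is a description. For Myf5 they were AU022252 (distance 0.167), Mlf1 and Pdzrn4, for Myod1 Zfp667 (0.186), Mus81 and BC025920, and for Myog Plekhm1 (0.082), Inpp4b and Cyfip2. For Myf6 they were Thap2 (0.039), Ube2l6 and Ggta1, and for Mef2a Vps26a (0.072), Huwe1 and Atp6ap2. Mef2c was followed most closely by Bpgm (0.131), Abca8a and Prkab2, a regulatory subunit of AMP-activated kinase. Mef2d was followed by Foxo1 (0.152), a factor that drives atrophy genes, S100a4 and Sqstm1, the autophagy receptor p62. The log2 levels of Foxo1 were 9.30, 9.01, 11.68 and 10.55, and those of Sqstm1 11.89, 11.79, 14.27 and 13.11. For Pax7, whose own mean was under 16 normalized reads, the nearest were Tubd1 (0.789), Zfp185 and Cys1. Genes with a mean as low as its own were not searched, so whether closer ones exist is not known.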

How the data were processed

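RNA was extracted from gastrocnemius muscle with Trizol and made into QuantSeq 3′ libraries, 1 per group. According to the methods, the authors used Bowtie2 for alignment, took counts from Bedtools coverage, and normalized these counts by a quantile method in edgeR. The submitters' processing notes name mm10. The annotation, the tool versions and the handling of strand and of reads matching several genes are not given in the sources used here. The deposited unit is log2, of a normalized count with 1 added, on 23282 rows, and each file holds 1 library.

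From these log2 values the reads were rebuilt by inverting the quantile adjustment, a negative binomial mapping to a common library size with a fitted dispersion of 0.3394. All deposited values (100%) came from whole reads within 0.0006, and 93.8% to 95.5% were tied to a single read number. The factors fitted to the libraries differed by at most 0.0104% from factors computed from the rebuilt reads by TMM (trimmed mean of M values). A count of 0 allows up to 3 reads, 2.27e-05% to 2.82e-05% of a library. No molecular identifiers are described, and intervals and this limit hold for counting error alone. The scripts were tested on simulated data and used Python 3.11.15, numpy 2.4.6, scipy 1.17.1, pandas 2.3.3 and matplotlib 3.10.9.

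Groups were taken from the sample titles, and 4 comparisons were made. With 1 library per group no test across samples was possible, and a gene was called at a change of at least 2-fold with a normalized count of at least 4. The study states a fold of 2 and a normalized count of 4 without saying whether the latter is on the log2 scale, where it would be a count of about 16 (tried as an alternative). The members, the gene lists and the settings were chosen with earlier results of these data known. The genes named were the 8 members, up to 2 rises and 2 falls of each list and comparison among called genes with at least 16 normalized reads, a fixed set of partners and targets, and the 3 nearest profiles of each member. A few other list genes (Megf10, Calcr, Tcf4, Hdac7, Mapk14, Rapsn, Chrnb1, Mymx, Cav3, Jam3, Slc2a4 and Ppargc1a) were named after their values were seen. Alternatives were scaling by median of ratios, by TMM and by total count, other pseudocounts, other minimums and folds of 1.5 and 4. Mymk and Mymx are listed under older symbols and were matched through RefSeq synonyms.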

Additional observations from a re-analysis of the deposited data

Results flagged for a closer look

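Among the members and the listed genes with more than 3 reads in all libraries, Myf5, Id1, Mef2b, Snai1, Twist2, Rian and Cxcr4 passed the 2-fold limit in opposite directions in the 2 settings of the same contrast. None of these differences was tested, since each group had 1 library. For Myf5 the log2 fold change with exercise was -1.45 in healthy and 2.21 in tumor-bearing mice, a difference of 3.66, and with the tumor -2.50 in sedentary and 1.16 in exercised mice, which gives the same 3.66. For Snai1 the exercise effect was -3.03 and 1.38 and the tumor effect -1.16 and 3.25, a difference of 4.41 in both. The exercise effect was -1.38 in healthy and 1.75 in tumor-bearing mice for Rian (difference 3.14), -1.18 and 1.19 for Cxcr4 (2.37), and 1.32 and -1.78 for Mef2b (-3.10), whose exons overlap Borcs8. The tumor effect was -1.25 in sedentary and 1.06 in exercised mice for Id1 (2.32), and -1.25 and 1.49 for Twist2 (2.74).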

How the results depend on the processing

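With a fold of at least 4 in place of 2, the members called numbered 0 for exercise alone, 2 for exercise added to the tumor (Myf5 and Myod1) and 1 for the tumor added to exercise (Pax7), and 5 for the tumor alone, beside 9.9%, 14.2%, 13.5% and 21.4% of all genes tested in these comparisons. With a minimum of 16 normalized reads, the count of all genes called went from 3121 to 1741 (14% of those tested) for exercise alone, from 4437 to 2966 (23.8%) for exercise added to the tumor, from 4378 to 2955 (23.7%) for the tumor added to exercise and from 6682 to 5126 (40.1%) for the tumor alone, while 2, 5, 4 and 7 members were called as before. The remaining 37 of 40 recomputed counts of members stayed within 1.5 times. Of 160 recomputed values of single members 153 moved by less than the counting interval and 7 by more, and none that was called changed direction. Total count scaling took 3 small values to another sign or to 0: Myod1 (-0.08 to 0.07) and Pax7 (-0.14 to 0.00) with exercise alone, and Myog (0.09 to -0.07) with the tumor added to exercise. The medians of the members kept their direction in 20 of 20. The call of Myf6 in the tumor alone was lost under total count scaling, and Pax7 was lost in both tumor comparisons when both libraries had to reach the minimum. Pax7 was gained in exercise added to the tumor without a minimum, from 2 reads against 0. Total count scaling moved the median of all genes to 0.150 for exercise alone and -0.185 for the tumor added to exercise, and left the members at 1 higher and 1 lower and at 2 higher and 2 lower. No paired analysis was possible because each group had 1 library, and for the same reason no replicate could be left out. Depth limits Pax7, Myf5, Mymk, Mymx, Chrng, Calcr and Megf10, which have few reads.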
